A study of Mus musculus with 8 samples.

Results

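The transcriptome described here is that of control fibroblast cultures from mouse colon, called Fib-Ctrl, as 4 RNA sequencing libraries out of 8 in the study. A gene was counted as a member when its level, averaged over the 4 Fib-Ctrl libraries, was 1 TPM or more, where TPM is the density of reads on a transcript scaled to a fixed total per library. This rule selected 12376 of 45321 genes (27.31%), of which 11457 (92.57%) were protein-coding. Gm5835 was the member closest to the threshold, at a mean of 1 TPM, and Mreg, at 0.9997 TPM, was the first gene outside it.

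All 4 libraries carried the genotype Zeb1 flox/flox, in which the gene for the transcription factor Zeb1 is flanked by recombinase sites but intact, and their labels gave the treatment as none. The other 4 libraries of the study, Fib-dZeb1, came from cultures with Zeb1 del/del and were used only for the check of the labels and for 1 alternative estimate of the spread. The labels numbered Fib-Ctrl 1 and 2, read here as line 1 and line 2, with 2 replicates of each. Ages of the animals were not given, nor was it stated how the replicates of a line had been separated, so p-values here measure the spread between these libraries, which may be technical. Whether the replicates of a line came from 1 culture is likewise not given, and a comparison of the lines is not one of conditions. The study describes adherent cultures on gelatine-coated plastic in serum, with Cre recombinase induced in vitro for deletion. Which mouse background and which Cre transgene each line had is not given in the sources used here, and neither is any treatment of the control cells with the inducing agent. Totals lay between 18852422 and 23143882 reads per library, and between 16412 and 16723 genes had at least 1 read.

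Fibroblasts build and remodel the extracellular matrix. In the colon wall they lie beneath the epithelium, where they supply growth factors and antagonists that hold the crypts in place between stem cells and differentiated cells. On stiff plastic in serum, fibroblasts commonly take up smooth muscle actin fibres and a contractile program, a state called the myofibroblast. Intestinal mesenchyme also keeps a record of its position along the body in its Hox genes.

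Zeb1 (chromosome 18, 5591860 to 5775467, plus strand, GRCm38) was measured first, because its level checks the labels. It stood at 32 and 30.01 TPM in replicates 1 and 2 of line 1 and at 32.8 and 31.99 TPM in those of line 2. The Fib-dZeb1 libraries lay between 5.94 and 8.90 TPM, so the groups did not overlap. With a coefficient of variation (CV, the SD as a percentage of the mean) of 3.78%, Zeb1 was a gene of even level over the control libraries. In the sentences below, values are given as replicate 1 and replicate 2 of line 1, then replicate 1 and replicate 2 of line 2.

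The levels of the members spanned 4 orders of magnitude. Of the 12376 members, 8234 reached 10 TPM, 1519 reached 100 TPM and 173 reached 1000 TPM. The 10 most abundant genes held 6.86% ± 0.227 (SD, n = 4) of all TPM, the 100 most abundant 32.1% ± 0.673 and the 1000 most abundant 68.3% ± 0.638. The 32945 genes under the threshold held 0.146% ± 0.0132 together, and 25876 genes were at 0 in all 4 libraries. Ribosomal protein genes accounted for 18.7% ± 1.22 of TPM over 81 genes, the mitochondrial genome for 1.78% ± 0.417, and collagens, matrix glycoproteins and proteoglycans for 5.13% ± 0.878 over 165 listed genes. Beside these, Gm42418 and CT010467.1, annotated as a lincRNA and a ribosomal RNA on chromosome 17, held 0.872% ± 0.115 of TPM.

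**Figure D1:**
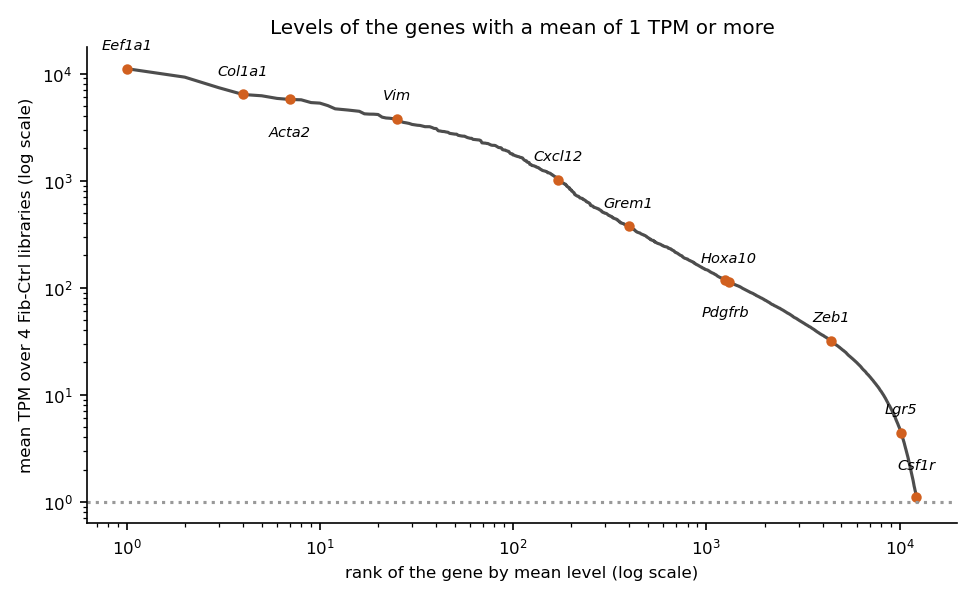
Mean level of each of the 12376 members over the 4 Fib-Ctrl libraries (y axis, TPM, log scale) against the gene's rank (x axis, log scale), with the threshold of 1 TPM dotted. Named genes are marked: Eef1a1 leads at 11114 TPM, Col1a1, Acta2 and Vim lie on the upper shoulder, Zeb1 at 31.7 TPM, and Csf1r at 1.11 TPM close to the threshold.

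Translation, matrix and cytoskeleton made up the top of the list. Eef1a1, the elongation factor that brings aminoacyl-tRNA to the ribosome, led at 11952, 12591, 9626 and 10286 TPM. Rplp1 and Rps12, proteins of the ribosome, followed at means of 9256 and 7375 TPM. Col1a1 (chromosome 11, 94936224 to 94953042, plus strand), the alpha 1 chain of type I collagen, came next at 7093, 5390, 7362 and 5656 TPM. Sparc, a collagen-binding matrix protein, was sixth among protein-coding genes at 7259, 5074, 6424 and 4685 TPM. Acta2 (chromosome 19, 34241090 to 34255590, minus strand), the smooth muscle actin that defines myofibroblasts, was at 6214, 5132, 6359 and 5205 TPM, a mean of 5728 TPM beside the 5688 TPM of Actb, the cytoplasmic actin of all cells. In these genes replicate 1 exceeded replicate 2 within both lines for Col1a1, Sparc and Acta2, and the lines overlapped.

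Among the 25 most abundant protein-coding genes there were 10 ribosomal or translation genes, 5 matrix genes (Col1a1, Sparc, Bgn, Col1a2 and Fn1), 4 cytoskeletal genes (Acta2, Actb, Actg1 and Vim) and 3 members of the S100 calcium-binding family (S100a4, S100a6 and S100a11). Bgn encodes biglycan, a small proteoglycan, and stood at 4878, 4149, 4844 and 4863 TPM. S100a4, often used as a fibroblast marker, was among the steadiest at 4471, 4745, 4361 and 4668 TPM (CV 3.87%). Fn1, fibronectin, was among the most variable of the 25, at 4627, 3895, 3300 and 2184 TPM (CV 29.5%). Reads of ribosomal protein genes can be shared with their many pseudogene copies, so those levels are uncertain.

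**Figure D2:**
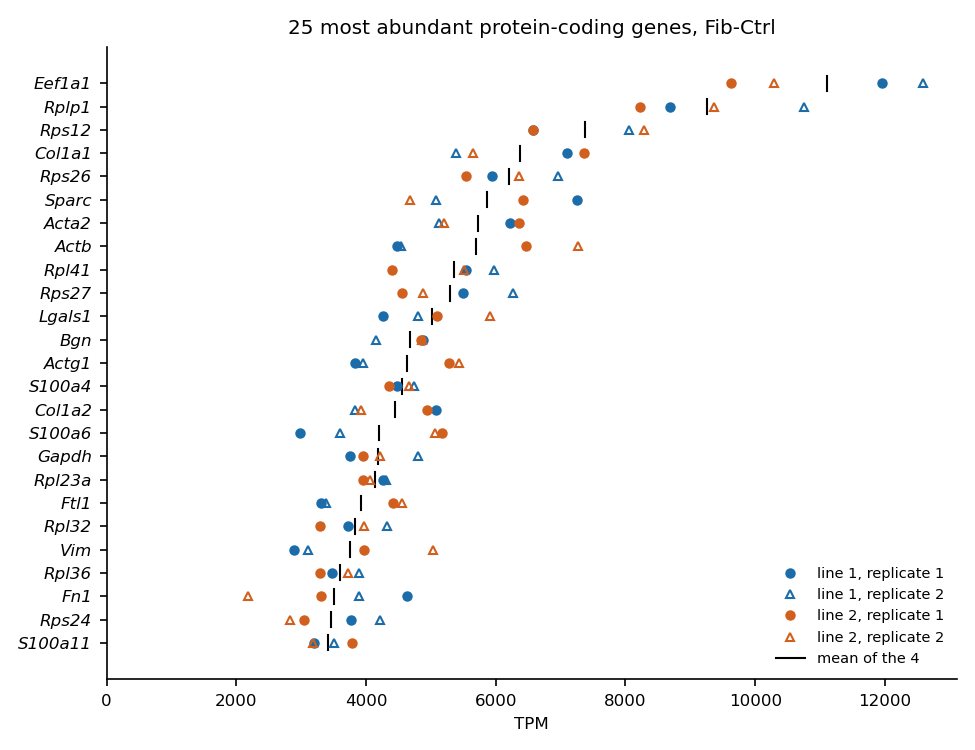
TPM (x axis, linear, from 0) of the 25 protein-coding genes of highest mean in each Fib-Ctrl library, with line 1 in blue, line 2 in orange, circles for replicate 1, triangles for replicate 2 and a bar at the mean of the 4. For Acta2 and Col1a1 the colours mix, while both line 2 libraries of S100a6 (5174 and 5068 TPM) lie right of both line 1 libraries (2984 and 3602 TPM).

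The cultures carried the markers of their label. All 7 marker genes given for these cells were members: besides Col1a1 and Acta2, Col1a2 (the alpha 2 chain of type I collagen) averaged 4441 TPM ± 661, Vim (vimentin) 3750 TPM ± 972, Tagln (transgelin, an actin-binding protein) 2223 TPM ± 595, Postn (periostin) 2194 TPM ± 1149 and Pdgfrb, a receptor for platelet-derived growth factor, 117 TPM ± 24.3 (SD, n = 4). Of 15 fibroblast identity genes 14 were members. The exception was Fap, fibroblast activation protein, a surface protease, at 0.0780, 0.157, 0.819 and 0.320 TPM.

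Markers of other cell types were low but not all absent. Epithelial markers summed to 15.0, 13.2, 2.46 and 4.23 TPM over 14 genes, of which 2 were members (Lgr5 and Krt19) and 4 were at 0 in every library. Epcam, the epithelial adhesion molecule, reached at most 0.0516 TPM and Cdh1, E-cadherin, at most 0.0766 TPM. Endothelial markers summed to between 1.09 and 3.92 TPM over 12 genes, with the endothelial cadherin Cdh5 at 0 throughout. Immune markers summed to 26.3, 14.1, 7.14 and 2.51 TPM over 14 genes, largely Lyz2 (lysozyme) at 21.6, 9.73, 5.39 and 1.27 TPM, whereas Ptprc, the pan-leukocyte CD45, reached at most 0.0518 TPM and the macrophage gene Adgre1 was at 0. Mesothelial markers summed to at most 1.43 TPM, with none of 8 a member. Kit, the receptor that defines interstitial cells of Cajal, was at 0 in all 4 libraries, while Ano1, their chloride channel, stood at 11.4, 6.93, 2.35 and 3.61 TPM. Pericyte markers summed to 37.3, 26.7, 79.0 and 59.3 TPM over 8 genes, of which 5 were members. Mcam, an adhesion molecule, stood at 15.0, 8.44, 60.9 and 46.1 TPM and Kcnj8 at 14.5, 10.6, 9.53 and 8.555 TPM. The members Cspg4, Abcc9 and Ndufa4l2 averaged 3.13, 1.45 and 1.36 TPM, while Rgs5 reached at most 0.457 TPM. Glial and neuronal markers summed to 7.84, 6.34, 25.4 and 40.2 TPM, mostly Vip (a neuropeptide) and Uchl1 (a ubiquitin hydrolase). A count of 0 reads allows up to 3 reads, which is between 0.130 and 0.159 CPM (reads scaled to the library total) in these libraries, and covers counting error only. In bulk samples, fewer cells of a type and less RNA per cell cannot be told apart.

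**Figure D3:**
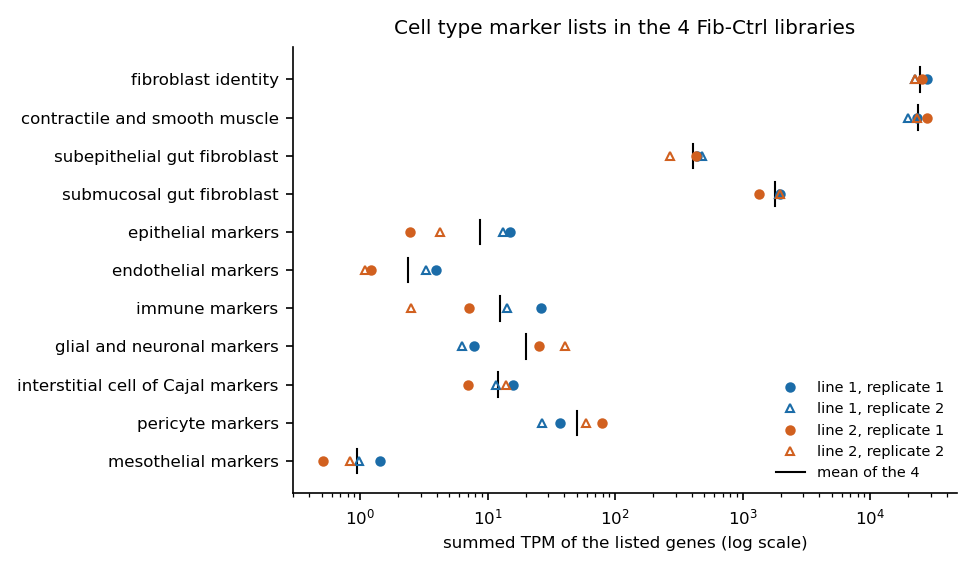
Summed TPM (x axis, log scale) of each marker list in the 4 Fib-Ctrl libraries, with line 1 in blue, line 2 in orange, circles for replicate 1, triangles for replicate 2 and a bar at the mean. Fibroblast identity and contractile genes lie at or above 19937 TPM in every library, pericyte markers between 26.7 and 79.0 TPM, and mesothelial markers at or below 1.43 TPM.

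Gut fibroblasts are commonly split into those just under the epithelium and those of the submucosa, and both lists were present in part. Of 14 subepithelial genes 5 were members: F3 (tissue factor) at 265, 285, 252 and 123 TPM, Pdgfra (the alpha receptor for platelet-derived growth factor) at 112, 155, 86.7 and 77.0 TPM, Wnt5a, Nrg1 and Edil3. Bmp5 and Bmp7, bone morphogenetic proteins on that list, were at 0 in all 4 libraries. Of 14 submucosal genes 9 were members, led by the surface glycoprotein Cd34 at 917, 812, 361 and 827 TPM, the tetraspanin Cd81 at 488, 478, 406 and 395 TPM and the BMP antagonist Grem1. Pi16 averaged 0.333 TPM and Dpp4 was at 0.

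Contractile genes were expressed at high levels as a set. Of 22 listed contractile and smooth muscle genes, 20 were members, with a median of 843 TPM, and together they held 2.38% ± 0.326 of TPM. Myl6, a myosin light chain, was even at 3063, 2730, 2752 and 2768 TPM. Tpm1, tropomyosin, stood at 3002, 2594, 3013 and 2285 TPM. Tagln was at 1952, 1653, 3036 and 2252 TPM and Actg2, the actin of visceral smooth muscle, at 2004, 1558, 3397 and 2611 TPM, so that both line 2 libraries were above both of line 1. Other genes of the list were far lower, such as Myh11, smooth muscle myosin heavy chain, at 11.4, 5.45, 28.8 and 7.87 TPM and Des, desmin, at no more than 0.650 TPM.

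Many contractile genes are known targets of serum response factor, which binds the CArG box, the bases CC and GG on either side of a run of 6 A or T. The box was searched on both strands in RefSeq promoter windows of 300 bases (GRCm38.p6, 250 before the transcription start and 50 after). It was found in 4 of 16 contractile members with a window (25%), and the other 4 contractile members had no window and were not searched. The share was 1.63% of all 9283 members with a window and 1.81% of the 27025 genes with one. Among the 100 most abundant protein-coding genes it was 3 of 73 with a window (4.11%), and Myl6 is in this set too. None of the 20 collagen members with a window held it. The 4 windows are shown up to the start site because the box is their common letter pattern, with the box in capitals, each 5′ to 3′ on the strand of the gene.
Cnn2 (chr10:79988350-79988599, plus strand): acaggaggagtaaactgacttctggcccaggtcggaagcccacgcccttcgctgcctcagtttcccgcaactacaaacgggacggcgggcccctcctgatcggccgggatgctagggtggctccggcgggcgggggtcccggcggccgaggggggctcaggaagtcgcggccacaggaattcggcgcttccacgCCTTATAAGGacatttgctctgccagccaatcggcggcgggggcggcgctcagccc
Myl9 (chr2:156775214-156775463, plus strand): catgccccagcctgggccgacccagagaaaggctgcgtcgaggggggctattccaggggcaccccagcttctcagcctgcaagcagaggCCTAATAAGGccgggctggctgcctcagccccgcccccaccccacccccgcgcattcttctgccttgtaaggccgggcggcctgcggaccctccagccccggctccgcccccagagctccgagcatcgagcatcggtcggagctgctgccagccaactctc
Myl6 (chr10:128493010-128493259, minus strand): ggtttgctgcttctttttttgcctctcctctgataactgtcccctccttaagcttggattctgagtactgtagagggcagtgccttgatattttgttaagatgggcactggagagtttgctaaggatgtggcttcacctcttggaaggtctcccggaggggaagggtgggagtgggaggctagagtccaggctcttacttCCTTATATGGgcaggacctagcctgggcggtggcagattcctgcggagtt
Vcl (chr14:20929148-20929397, plus strand): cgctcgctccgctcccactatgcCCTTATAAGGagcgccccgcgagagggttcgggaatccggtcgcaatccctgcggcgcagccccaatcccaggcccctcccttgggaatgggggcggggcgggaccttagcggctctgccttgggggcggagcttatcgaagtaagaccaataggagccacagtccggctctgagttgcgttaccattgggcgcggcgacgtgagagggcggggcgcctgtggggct
The box began at position -56 in Cnn2 (calponin 2), -161 in Myl9 (a regulatory myosin light chain), -50 in Myl6 and -227 in Vcl (vinculin, which links actin to adhesions), counted from the start site. Myl6 had a CV of 5.56% and Myl9 one of 14.8%, beside a median of 14.4% for members at 10 TPM or more. Cnn2 stood at 673, 589, 748 and 819 TPM and Vcl at 307, 291, 322 and 266 TPM, and Myl9 averaged 1272 TPM ± 189 (SD, n = 4). Cnn2 and Vcl were named for the box, after their values had been seen. A match of letters is a description and does not show binding.

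Fibrillar collagens led the matrix. Of 44 collagen genes 24 were members, with a summed level of 23189, 17055, 20007 and 14879 TPM, of which Col1a1 and Col1a2 made the larger share. Col3a1, the fibrillar collagen that assembles with type I, stood at 2517, 1670, 1514 and 988 TPM. Col5a2 and Col5a1, chains of the type V collagen that sets fibril diameter, averaged 1328 TPM ± 265 and 798 TPM ± 264. The basement membrane chains Col4a1 and Col4a2 averaged 1005 TPM ± 189 and 724 TPM ± 111, and Col6a3, of the microfibrillar type VI collagen, 688 TPM ± 77.0 (SD, n = 4). In each of these collagens, replicate 1 was above replicate 2 within both lines, and 20 listed collagens were below 1 TPM on average.

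Of 76 matrix glycoproteins 65 were members. Thbs1, thrombospondin 1, which binds and activates latent TGF-beta, was at 4158, 3496, 3310 and 1792 TPM, and Fbln2, fibulin 2, at 1331, 1839, 1844 and 1520 TPM. Postn fell into separate ranges by line, at 3691, 2452, 1560 and 1073 TPM. The matricellular gene Ccn2, a classic target of the YAP and TGF-beta pathways, was at 298, 350, 1975 and 1400 TPM. Of 45 proteoglycan genes 27 were members, and after Bgn came Dcn, decorin, which binds collagen fibrils, at 1007, 391, 497 and 324 TPM and Hspg2, perlecan, at 247.6, 229, 309 and 264 TPM. Vcan, versican, was at 264, 271, 101 and 117 TPM.

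Matrix processing was led by the collagen chaperone Serpinh1 at 2434, 1979, 2348 and 1831 TPM. Of 84 enzymes and inhibitors of the matrix 66 were members. Lox, the oxidase that starts collagen cross-linking, stood at 1119, 865, 1846 and 1108 TPM, and Pcolce, an enhancer of procollagen cleavage, at 1013, 893, 671 and 758 TPM. Inhibitors were abundant: Timp1 averaged 861 TPM ± 364 and Timp2 668 TPM ± 246 (SD, n = 4). Among the proteases named after their values had been seen, Mmp14 averaged 309 TPM ± 76.9 and Mmp2 253 TPM ± 147, whereas Mmp3 averaged 0.450 TPM.

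Receptors were lower in TPM than the leading matrix genes. Itgb1, the common beta chain of matrix-binding integrins, was highest at 931, 775, 1592 and 1372 TPM, and its fibronectin-binding partner Itga5 was at 244, 265, 651 and 468 TPM. Only 14 of 26 integrins were members. Itgav and Itgb5, chains of vitronectin receptors, averaged 195 TPM ± 24.0 and 232 TPM ± 32, and Itga11, a collagen receptor chain of fibroblasts, 168 TPM ± 69.6 (SD, n = 4).

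Of 58 receptor tyrosine kinases 33 were members. Axl, the receptor for Gas6, led at 428, 474, 742 and 852 TPM, followed by Ryk, a Wnt co-receptor, at a mean of 221 TPM, and Ddr2, a collagen receptor, at 194, 158, 187 and 202 TPM. Fgfr1 stood at 190, 182, 169 and 149 TPM. Both receptors for platelet-derived growth factor were members at similar means, Pdgfrb at 117 TPM and Pdgfra at 108 TPM. In the TGF-beta family 11 of 14 receptors were members. Tgfbr2, the receptor that binds TGF-beta itself, averaged 66.1 TPM ± 13.9 and Bmpr1a, a BMP receptor, 65.6 TPM ± 26.5 (SD, n = 4).

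Cytokine and innate receptors counted 39 members of 64. The highest was Tnfrsf12a, the receptor for TWEAK, at 167, 171, 530 and 436 TPM. Tnfrsf1a, the main TNF receptor, stood at 197, 272, 156 and 148 TPM and Il6st, the signalling chain shared by interleukin 6 family receptors, at 243, 230, 107 and 89.6 TPM. Of 29 receptors for Wnt, Notch and Hedgehog ligands 23 were members, led by Smo, which carries the Hedgehog signal, at 125, 136, 99.1 and 124 TPM. Of 82 G protein-coupled receptors 46 were members. These were led by F2r, the thrombin receptor, at 185, 181, 486 and 426 TPM, Lpar1, a receptor for lysophosphatidic acid, at 123, 150, 112 and 104 TPM and Npy1r, a receptor for neuropeptide Y, at 108, 48.1, 97.9 and 115 TPM.

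Hox genes, the homeobox genes of position, were members in 22 of 39 cases. Hoxa held 10 members of 11 genes, Hoxb 8 of 10 and Hoxd 4 of 9. The Hoxc cluster on chromosome 15 gave 0 reads in 4 libraries over all 9 of its genes. Hoxa10 was the highest at 180, 131, 67.1 and 75.2 TPM, then Hoxa11 at 113, 94.4, 39.6 and 44.1 TPM and Hoxb9 at 58.2, 78.7, 38.5 and 42.4 TPM. Hoxa13 and Hoxd13, genes of the posterior ends of their clusters, averaged 14.6 TPM ± 4.41 and 11.5 TPM ± 5.74 (SD, n = 4). Levels of Hoxb13 averaged 0.311 TPM. Summed over each cluster, Hoxa reached 348, 281, 147 and 159 TPM, Hoxb 146, 160, 115 and 134 TPM and Hoxd 39.8, 29.0, 37.3 and 25.3 TPM, so that the order of the clusters was the same in all 4 libraries.

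Of 101 mesenchymal transcription factors 68 were members, with a median of 15.9 TPM. Prrx2, a homeobox gene of mesenchyme and the highest of them, stood at 108, 105, 98.9 and 142 TPM. Foxf1, a forkhead gene of gut mesenchyme that responds to Hedgehog, was even at 81.6, 78.6, 80.0 and 94.2 TPM. The repressor Snai1, which acts in the same program as Zeb1, averaged 82.7 TPM ± 18.2 (SD, n = 4). Hand2 and Irx1, developmental regulators, were at 108, 97.3, 24.7 and 28.9 TPM and at 77.0, 134, 24.3 and 25.6 TPM. Nkx2-3, a homeobox gene of gut and spleen mesenchyme named after its values had been seen, was at 84.8, 66.8, 52.3 and 53.4 TPM. Zeb2, the paralog of Zeb1 and likewise named afterwards, stood at 13.3, 10.4, 48.1 and 41.9 TPM beside the even Zeb1. Foxl1 and Gli1, markers of gut subepithelial cells and of Hedgehog response, averaged 0.163 and 0.200 TPM.

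Signal-responsive transcription factors were broadly expressed, with 133 of 145 above the threshold. Ybx1, a cold shock domain protein that also binds mRNA, averaged 1356 TPM ± 143, and the stress response factors Atf5 and Atf4 averaged 578 TPM ± 151 and 315 TPM ± 60.1 (SD, n = 4). Id3, an early target of BMP signalling, was at 135, 159, 223 and 218 TPM.

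Several of the highest secreted factors differed widely between libraries. Ptn, pleiotrophin, a heparin-binding growth factor, was the highest on average, at 6486, 3555, 364 and 573 TPM. Of 79 growth factors and binding proteins 40 were members. Igfbp7, a secreted binding protein of insulin-like growth factors, was in contrast even at 1247, 1188, 1182 and 1122 TPM. Igfbp4 stood at 1012, 1308, 256 and 338 TPM and Gas6, the ligand of Axl, at 1471, 1189, 127 and 77.7 TPM, so that ligand and receptor had opposite orders over the lines. Csf1, the growth factor of macrophages, was at 274, 374, 888 and 696 TPM and Igf1 at 499, 313, 143 and 122 TPM. Hgf and Fgf7, epithelial growth factors made by stroma and named after their values had been seen, averaged 115 TPM ± 53.0 and 94.98 TPM ± 50.4 (SD, n = 4).

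The BMP antagonists named here were far higher in TPM than the BMP ligands. Of 42 measured genes of the TGF-beta and BMP list 19 were members. The follistatin-like Fstl1 led at 973, 637, 711 and 491 TPM, then Grem1, which keeps BMP from crypt bases, at 157, 199, 479 and 659 TPM and Inhba, the subunit of activin A, at 67.9, 65.0, 324 and 194 TPM. Bmp4 averaged 0.477 TPM and Bmp2 0.0139 TPM. Tgfb3 and Tgfb1 were at means of 64.0 and 32.2 TPM. In the Wnt list 14 of 38 genes were members. Wls, needed to export Wnt proteins, was at 277, 247, 256 and 187 TPM, and the inhibitors Dkk3 and Dkk2 averaged 103 TPM ± 26.1 and 52.6 TPM ± 10.8 (SD, n = 4). Wnt5a, which acts outside the beta-catenin pathway, was at 33.8, 25.7, 78.1 and 60.4 TPM, and Rspo3, an R-spondin that strengthens Wnt signals at the crypt base, at 3.38, 2.82, 4.13 and 1.34 TPM.

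Of 35 chemokines 15 were members and 10 were at 0 throughout. Cxcl12, the ligand of Cxcr4, led at 1530, 1223, 519 and 813 TPM, followed by the monocyte attractants Ccl7 at 272, 420, 152 and 100 TPM and Ccl2 at 168, 292, 42.8 and 21.8 TPM. Among cytokines and other immune mediators 29 of 69 were members. Mif, a cytokine released by many cells, averaged 1384 TPM ± 304 (SD, n = 4). Ptgs2, the inducible cyclooxygenase of prostaglandin synthesis, stood at 126, 191, 401 and 386 TPM. Il6 was at 2.42, 7.13, 0.917 and 0.453 TPM. Guidance cues numbered 25 members of 33, with Sema3a, which repels axons, at 154, 111, 158 and 202 TPM and Slit3 at 247, 204.8, 61.8 and 35.6 TPM.

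**Figure D4:**
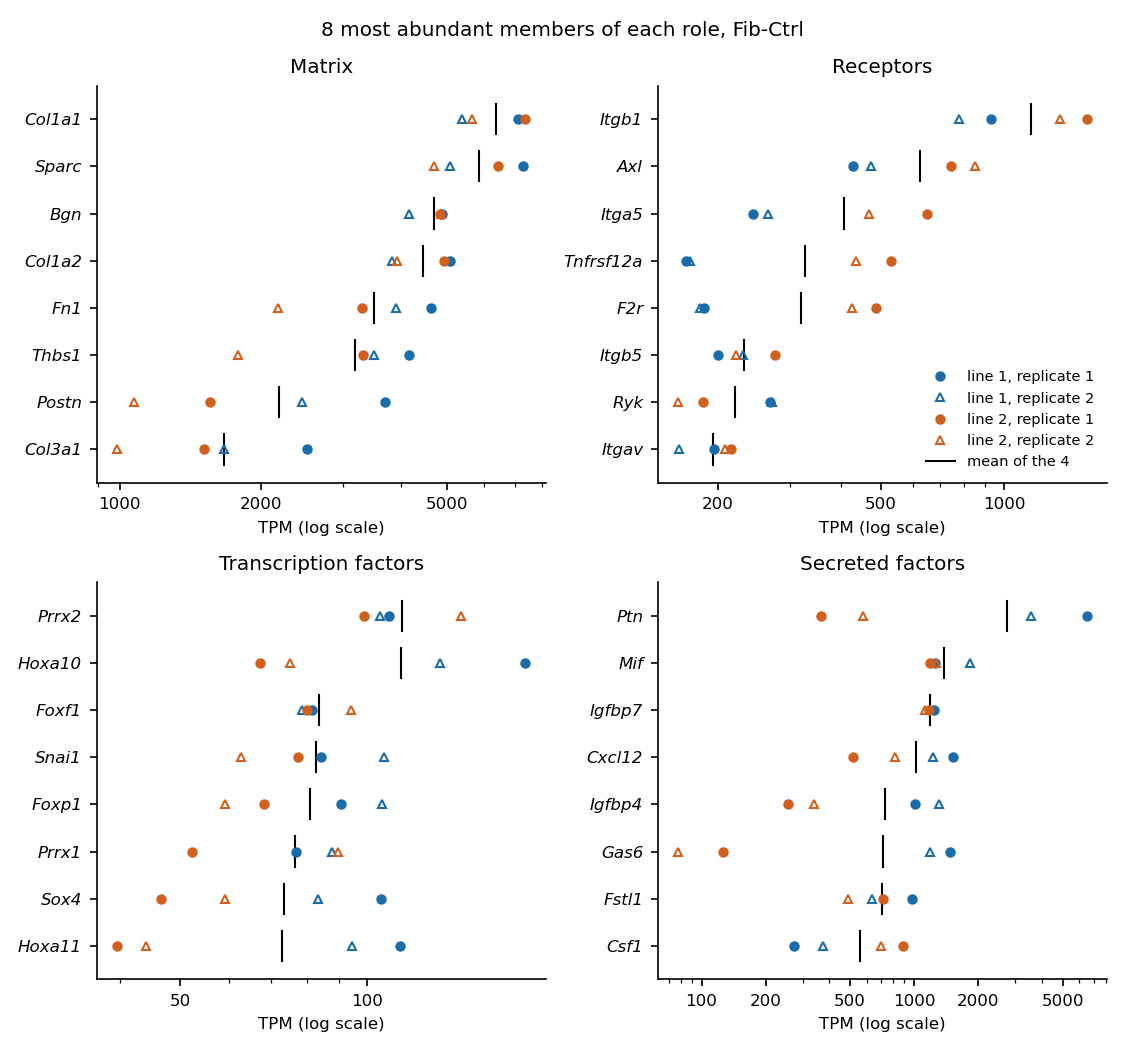
TPM (x axes, log scale) of the 8 members of highest mean in each of 4 roles, with line 1 in blue, line 2 in orange, circles for replicate 1, triangles for replicate 2 and a bar at the mean of the 4. Transcription factors are those of the Hox and mesenchymal lists. Matrix genes of highest level such as Col1a1 mix the colours, whereas Ptn, Gas6, Igfbp4, Hoxa10 and Hoxa11 have both line 2 libraries left of both line 1 libraries.

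Genes of cell division and of arrest were expressed side by side, with all 27 listed cell cycle genes above the threshold. Cdk1, the mitotic kinase, stood at 187, 250.9, 221 and 269 TPM and Top2a, the topoisomerase of dividing cells, at 113, 166, 137 and 171 TPM. Cdkn1a, the p21 inhibitor induced by p53, was at 201, 220, 457 and 424 TPM, and Cdkn2a, the locus of p16 and p19, at 244, 170, 157 and 156 TPM.

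Spread over the libraries was then compared with its sources, line and replicate. The median CV of the members was 18.1% (quartiles 10.8% and 31.8%), and 14.4% for those at 10 TPM or more. Members at 1 TPM or more in every library numbered 11287, and 462 members were below 1 TPM in both libraries of a line. The smallest CVs among protein-coding genes at 10 TPM or more were those of Wnk1, a kinase of ion transport, at 134, 134, 132 and 133 TPM (CV 0.637%), Commd2, Adam17 (the protease that sheds TNF), Dnaja2 and Arhgap23. The largest were those of Ifit3 (CV 146%), Col14a1, Dynap, Prl2c3 and Isg15. Isg15 and Ifit3 are genes that interferon induces, and stood at 95.1, 35.2, 5.02 and 2.89 TPM and at 38.4, 8.90, 0.990 and 0.698 TPM. Correlations of log2 CPM were 0.979 and 0.981 between replicates of a line and 0.913 to 0.923 between lines, as descriptions over genes of 4 libraries. The first principal component, with 78.6% of the variance, separated the lines. The second, with 12.7%, separated the replicate numbers in both lines. On it, replicate 1 lay at 20.6 in line 1 and 23.1 in line 2, and replicate 2 at -22.1 and -21.5.

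The lines were tested against each other on the counts of 12900 genes with edgeR's quasi-likelihood test at an adjusted p below 0.05. In line 2, 1280 genes (9.92%) were higher and 1309 (10.1%) lower, 20.1% in all. Of the 12376 members 12059 were tested and 2415 were called, 1209 higher and 1206 lower. Among the members called, 417 were at least 2-fold higher and 654 at least 2-fold lower in line 2. The numbers fell to 1241 genes without line 2 replicate 1 and to 1117 without line 2 replicate 2, where the remaining library was assumed to vary like the other line. Over all genes tested, 372 (2.88%) higher and 463 (3.59%) lower calls were kept with any 1 of the 4 libraries left out. In the same way, 803 members were still called in the same direction, and the differences named in the next paragraphs are among those unless stated. In the comparison of replicates 2 with replicates 1, with line as a term, 0 genes were higher and 2 lower by edgeR, with 1530 genes at an unadjusted p under 0.05, and 16 and 39 by DESeq2. The 2 genes, named after their values had been seen, were Fam220a and Rn7s2, an RNA gene with a near-identical copy.

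**Figure D5:**
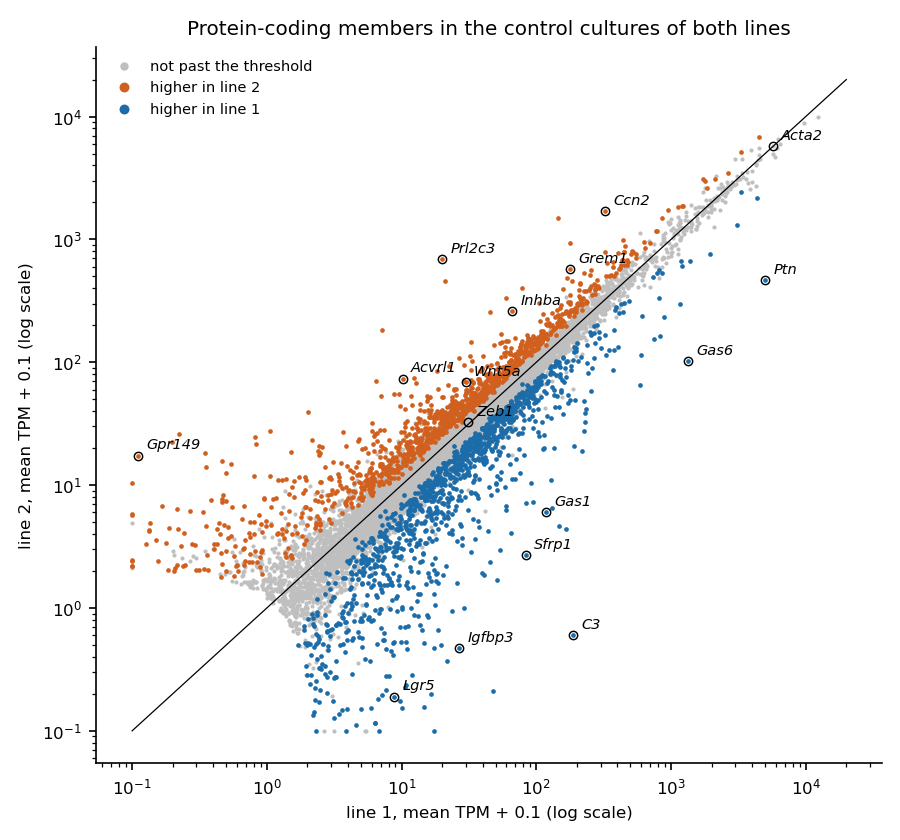
Mean TPM + 0.1 of each protein-coding member in line 2 (y axis, log scale) against line 1 (x axis, log scale), with genes past the threshold in orange where higher in line 2, in blue where higher in line 1 and the others grey. The black line marks equal levels, and Acta2 and Zeb1 lie on it, while Ptn, Gas6 and C3 lie below and Ccn2, Grem1 and Acvrl1 above.

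Collagens, where called, were all lower in line 2: 9 of 24 members tested, and 0 higher, against 10.1% and 9.92% of all genes, with a median log2 difference of -0.64 beside -0.01 over all genes tested. Of these 9, 4 kept the call with any 1 library left out. Col15a1, a basement membrane collagen, was at 16.7, 14.5, 2.60 and 1.07 TPM (log2 -3.06 ± 0.37 SE, adjusted p = 0.00549, edgeR). Col6a1 and Col6a2, which with Col6a3 form type VI collagen, were at 1046, 730, 289 and 182 TPM and at 719, 471, 148 and 82.0 TPM, and were chosen after their values had been seen. Their log2 differences were -1.88 ± 0.26 and -2.33 ± 0.32 (adjusted p = 0.00818 and 0.00762, edgeR), while Col6a3 differed by -0.03 ± 0.17 (adjusted p = 0.909). The type I chains differed by 0.10 ± 0.24 and 0.04 ± 0.22 on the log2 scale, within the spread of the libraries.

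Matrix glycoproteins had 11 members higher and 22 lower of 65, against 9.92% and 10.1% over all genes, and 6 and 15 with any 1 library left out, against 2.88% and 3.59%. Ccn2 was higher in line 2 by 2.41 ± 0.22 on the log2 scale (adjusted p = 0.00253, edgeR), whereas Thbs4 was lower, at -6.03 ± 0.77 (adjusted p = 0.00657). Postn was lower, at -1.20 ± 0.26 (adjusted p = 0.0267), a call lost without line 1 replicate 1 (0.0547), line 2 replicate 1 (0.0531) or line 2 replicate 2 (0.135), and with the spread taken from all 8 libraries (0.14). Among proteoglycans 1 member was higher and 5 lower of 27, of which Vcan differed by -1.22 ± 0.15 (adjusted p = 0.00602). In the matrix enzymes and inhibitors 13 were higher and 9 lower of 66, and Timp2, an inhibitor of metalloproteases, was higher by 0.97 ± 0.13 (adjusted p = 0.00653).

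Growth factors had 11 members higher and 15 lower of 40, beside 9.92% and 10.1% of all genes, and 6 and 12 with any 1 library left out, beside 2.88% and 3.59%. Ptn was lower in line 2, at -3.37 ± 0.36 on the log2 scale (adjusted p = 0.00414), Gas6 at -3.66 ± 0.26 (0.00144), Igfbp4 at -1.94 ± 0.21 (0.00432) and Igf1 at -1.61 ± 0.24 (0.0101), all by edgeR, although with the spread of all 8 libraries Igf1 reached 0.226. Igfbp3 was lower, at -6.07 ± 0.31 (adjusted p = 0.000702), at 31.8, 21.5, 0.298 and 0.443 TPM. Csf1 was higher by 1.32 ± 0.23 (adjusted p = 0.0145, edgeR), a call lost without line 2 replicate 1 (0.0552). Of the TGF-beta and BMP list 7 members were higher and 1 lower of 19, with a median log2 difference of 0.79. Grem1 was higher by 1.71 ± 0.23 (adjusted p = 0.00725) and Inhba by 1.99 ± 0.24 (0.00547). Guidance cues had 4 higher and 7 lower of 25. The summed level of the growth factor list was 12677, 9698, 4578 and 4392 TPM, of which Ptn gave 6486, 3555, 364 and 573 TPM. Gas6 and Igfbp4, also lower in line 2, are part of that sum. Across the growth factor members the median log2 difference was -0.11, beside -0.01 over all genes tested.

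Chemokines had 1 member higher and 8 lower of 13 tested, against 9.92% and 10.1% of all genes, with a median log2 difference of -1.43, and 4 of the 8 kept the call with any 1 library left out. Ccl2 was lower in line 2, at -2.82 ± 0.40 (adjusted p = 0.00858), Cxcl5, a chemokine for neutrophils, at -3.13 ± 0.46 (0.00942) and Cx3cl1, the membrane-bound fractalkine, at -3.15 ± 0.23 (0.00147), by edgeR. Cxcl12 had a log2 difference of -0.93 ± 0.24 (adjusted p = 0.0435), a call lost without line 1 replicate 1 (0.0948), line 1 replicate 2 (0.0529) or line 2 replicate 1 (0.142), and with the spread of all 8 libraries (0.0554). Among cytokines and other immune mediators 3 were higher and 11 lower of 28 tested. The complement genes C3 and C1s1 were lower, at -8.54 ± 0.62 (adjusted p = 0.00154) and -2.43 ± 0.13 (0.000828), C3 at 135, 237, 0.828 and 0.180 TPM. Ptgs2 was higher by 1.34 ± 0.23 (adjusted p = 0.0147, edgeR), a call lost without line 2 replicate 2 (0.0511). The immune marker sums of 26.3 and 14.1 TPM in line 1 and 7.14 and 2.51 TPM in line 2 moved the same way as the chemokines, and their part in these differences was not tested, while Ptprc was at or near 0 in both lines.

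Sfrp1 and Sfrp2, secreted Wnt-binding proteins, were at 54.1, 113, 4.13 and 1.05 TPM and at 38.2, 19.4, 0.532 and 1.28 TPM, lower in line 2, at -5.01 ± 0.67 and -4.87 ± 0.47 on the log2 scale (adjusted p = 0.00746 and 0.00306, edgeR). Wnt5a was higher by 1.24 ± 0.17 (adjusted p = 0.00824). Lgr5, a receptor for R-spondins and the marker of crypt stem cells, was at 10.9, 6.60, 0.0384 and 0.142 TPM (-6.59 ± 0.54, adjusted p = 0.00203), in cultures whose Epcam was at or near 0. In the list of Wnts, R-spondins and Wnt inhibitors 1 of 14 members was higher and 3 were lower, and of the receptors for Wnt, Notch and Hedgehog ligands 2 of 23 were higher and 7 lower, beside 9.92% and 10.1% of all genes. Gas1, a Hedgehog co-receptor, was at 102, 136, 4.59 and 7.32 TPM (-4.27 ± 0.29, adjusted p = 0.00132), whereas Smo differed by -0.19 ± 0.16 (adjusted p = 0.438).

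Receptors of the TGF-beta family had 3 members higher and 3 lower of 11, beside 9.92% higher and 10.1% lower over all genes, and all 6 calls held with any 1 library left out. Acvrl1, a type I receptor for BMP9, was at 11.96, 8.17, 75.4 and 71.8 TPM (3.05 ± 0.17, adjusted p = 0.000887, edgeR), and its co-receptor Eng, endoglin, was also higher (0.96 ± 0.16, adjusted p = 0.0138). Bmpr1a, the activin receptor Acvr2a and the co-receptor Tgfbr3 were lower, at -1.0 ± 0.13, -2.47 ± 0.22 and -1.39 ± 0.21 on the log2 scale (adjusted p = 0.00656, 0.00255 and 0.00948). Tgfbr2 differed by -0.31 ± 0.18 (adjusted p = 0.276). Integrins had 4 members higher and 1 lower of 14, with Itga5 higher by 1.17 ± 0.19 (adjusted p = 0.0119) and Itga3, a laminin receptor chain, lower, at -2.06 ± 0.17 (adjusted p = 0.00203). Cytokine and innate receptors had 6 higher and 14 lower of 39. Of these, Tnfrsf12a was higher by 1.55 ± 0.13 (adjusted p = 0.002) and Il6st lower, at -1.27 ± 0.13 (adjusted p = 0.00338). Among receptor tyrosine kinases 3 were higher and 10 lower of 33. Axl was higher by 0.81 ± 0.16 (adjusted p = 0.0206, edgeR), but reached only 0.052 with the spread of all 8 libraries. Its call was also not kept in every case with 1 library left out. Among G protein-coupled receptors 12 were higher and 5 lower of 46, F2r by 1.35 ± 0.12 (adjusted p = 0.00255).

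Mesenchymal transcription factors had 11 members higher and 22 lower of 68, where 9.92% of all genes were higher and 10.1% lower, and 10 and 7 with any 1 library left out, where it was 2.88% and 3.59%. Hand2 was lower in line 2, at -1.89 ± 0.13 on the log2 scale (adjusted p = 0.00131) and Irx1 at -2.05 ± 0.29 (0.00819). Zeb2 was higher by 1.97 ± 0.14 (adjusted p = 0.00138, edgeR). Among its relatives in mesenchymal programs, Snai2 was higher by 1.40 ± 0.15 (0.00422) and Twist1 by 0.94 ± 0.14 (0.00859), and both were named after their values had been seen. Not all relatives were higher: Snai1 was not called, at -0.41 ± 0.17 (adjusted p = 0.149, edgeR). Zeb1 differed by 0.02 ± 0.10 (adjusted p = 0.905, edgeR). Six2 was at 0 reads in line 1 and 236 in line 2, at least 89.1-fold higher against the 3 reads that a count of 0 over that line allows. That bound covers counting error in the count of 0 only. Of 22 Hox members 2 were higher and 6 lower. Hoxa10 and Hoxa11 were lower, at -1.11 ± 0.15 and -1.27 ± 0.12 (adjusted p = 0.00757 and 0.00289), Hoxd9 at -4.32 ± 0.32 (0.00154), and Hoxb4, an anterior gene, was higher by 1.83 ± 0.23 (0.00638). Signal-responsive factors had 23 higher and 20 lower of 133, a median of 0.00 on the log2 scale.

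Contractile genes had 3 members higher and 1 lower of 20, a share close to the 20.1% of all genes called in either direction, and only Synm, synemin, an intermediate filament protein at a mean of 1.12 TPM, kept its call with any 1 library left out (-2.02 ± 0.27, adjusted p = 0.00719, edgeR). Acta2 differed by 0.07 ± 0.18 (adjusted p = 0.82), and Tagln by 0.59 ± 0.18 (adjusted p = 0.0679, but 0.0419 with the spread of all 8 libraries and 0.013 with the replicate block, edgeR). The fibroblast identity list had 0 higher and 1 lower of 14, the latter Postn, and subepithelial and submucosal genes 2 higher and 1 lower of 5 and 2 higher and 2 lower of 9. Cell cycle genes had 3 higher and 3 lower of 27, also close to the share over all genes. Cdkn1a was higher by 1.14 ± 0.13 (adjusted p = 0.00433, and 0.15 with the spread of all 8 libraries) and Cdkn1b, the p27 inhibitor, lower, at -1.26 ± 0.17 (0.00725). Cdk1 differed by 0.20 ± 0.20 (adjusted p = 0.509).

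The largest differences, among protein-coding members with at least 5 TPM in the higher line, lay in genes close to 0 in the other line. Gpr149, an orphan receptor, had 1 read in line 1 and 1525 in line 2, a ratio of 1727 with a 95% exact interval of 309.5 to 68264 that covers counting error only. Dynap had 3 reads in line 1 and 598 in line 2. P2ry14, a receptor for UDP-glucose, was at 0.307, 0.414, 10.3 and 21.2 TPM, Gnai1, an inhibitory G protein subunit, at 0.314, 0.195, 12.6 and 15.2 TPM, and Adgrl3, an adhesion receptor, at 0.0529, 0.0822, 6.44 and 6.88 TPM. Art3, Fmr1nb, 3830403N18Rik, Six2 and Pcdhga8 completed the 10 genes higher in line 2, and Pcdhga8 belongs to a cluster whose members share their last exons, so its share of reads is uncertain.

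The 10 largest differences towards line 1 included Steap4, a metalloreductase of inflammation, which had 1298 reads in line 1 and 0 in line 2, at least 382-fold higher in line 1. Zbp1, a sensor of viral nucleic acid, had 136 and 0 reads, at least 40.03-fold higher. Both bounds allow only for counting error in the count of 0, not for spread between libraries. Lbp, which presents bacterial lipopolysaccharide, was at 9.91, 22.8, 0.122 and 0.0750 TPM. The matrix gene Vit, vitrin, was at 61.6, 34.2, 0.224 and 0 TPM, and the noradrenaline transporter Slc6a2 at 5.24, 7.20, 0.0306 and 0 TPM. C3, Cpxm2, Capn6, Frem1 and Chl1 were the others, of which Chl1 lost its call without line 2 replicate 1 (adjusted p = 0.0546, edgeR) or line 2 replicate 2 (0.0766). In the list of largest CVs, Prl2c3 reached 429 and 956 TPM in line 2 against 14.3 and 25.7 TPM in line 1, and it belongs to a family of near-identical copies, so reads may be split wrongly between them.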

How the data were processed

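Polyadenylated RNA of cultured mouse colon fibroblasts was sequenced, and the 4 Fib-Ctrl libraries were analysed. The authors aligned reads to GRCm38 with STAR and quantified transcripts with Salmon in a release of the nf-core RNA-seq pipeline that their methods name, while annotation release and strand setting were not given in the sources used here. The deposited files hold estimated counts, not normalized, and TPM per transcript, 1 library per file. Because strand use was not stated, antisense and overlapping genes are uncertain.

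Both units were summed to 45321 genes with GENCODE M21 (GRCm38), which matched 98.72% of 109617 transcripts. Unmatched transcripts held up to 0.525% of TPM and were left out. Estimated counts were rounded to whole numbers. The replicates of neither line agreed within sampling noise. The authors' methods name DESeq2 for their own comparison; lines were compared here with the quasi-likelihood test of edgeR 4.0.16 (R 4.3.3), TMM scaling, a mean of at least 0.5 CPM over the 4 libraries and Benjamini-Hochberg adjustment over 12900 genes. The SE of a log2 difference was not fitted by edgeR. It was computed as the size of the difference divided by the square root of the test's F statistic. DESeq2 1.42.0 was an alternative. In simulated data, 59 of 100 genes changed 2-fold, 90 of 100 changed 4-fold and 7 of 12700 unchanged genes were called. The simulated counts took the spread typical of each expression level, without a spread particular to each gene. Levels were computed with Python 3.11.15 and pandas 2.3.3. Intervals are exact 95% intervals (SciPy 1.17.1).

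The members and all gene lists were chosen with earlier results of these data known. Named genes were Zeb1, the cell type markers, the 25 protein-coding genes of highest mean, up to 8 members of highest mean and the 2 called members of largest fold in each list, the 10 most changed in each direction between lines (at least 5 TPM in the higher line), and the 5 largest and 5 smallest CVs at 10 TPM or more. Alternatives were other scalings and filters, DESeq2, a replicate block, the spread of all 8 libraries and leaving out each library. 1 listed gene, Gdf1, had no row.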

Additional observations from a re-analysis of the deposited data

Results flagged for a closer look

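In 12 of 265 named members, 1 of the 4 libraries lay far from the other 3, with a gap to its nearest neighbour that took more of the whole range than Dixon's critical value allows. Chance alone gives this in about 1 of 20 groups. Each gene is given with that share and with the level of the library that stood apart.

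Replicate 1 of line 1 was high for Ogn, osteoglycin (0.873, at 178 TPM against 35.7 to 53.8 TPM), Dpt, dermatopontin (0.876, 11.96 TPM against 5.93 to 6.68 TPM), Dkk2 (0.86, 68.7 TPM against 45.9 to 49.1 TPM), Cdkn2a (0.833, 244 TPM against 156 to 170 TPM) and Myl6 (0.887, 3063 TPM against 2730 to 2768 TPM). Replicate 2 of line 1 was high for Spp1, osteopontin (0.926, 199 TPM against 60.8 to 71.0 TPM), Mif (0.877, 1837 TPM against 1185 to 1265 TPM) and Chl1, a neural adhesion molecule (0.835, 10.1 TPM against 0.0106 to 1.68 TPM). The same library was low for Bgn (0.955, 4149 TPM against 4844 to 4878 TPM) and Arhgap23 (0.838, 38.5 TPM against 39.2 to 39.3 TPM). Replicate 2 of line 2 was high for Etv1, a transcription factor of interstitial cells of Cajal (0.972, 10.4 TPM against 4.52 to 4.69 TPM) and Ccnd3, cyclin D3 (0.877, 157 TPM against 127 to 131 TPM).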

How the results depend on the processing

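The number of genes at a mean of 1 TPM or more was 12376 and lay between 11287 (1 TPM in every library) and 13366 (a mean of 0.5 TPM) over the alternatives, with 12322 to 12412 when 1 library was left out. The share of TPM in the 10 most abundant genes was 6.86%, 7.34% over protein-coding nuclear genes only and 9.88% as a share of estimated counts, and 6.79% to 6.95% with 1 library left out. Line 2 against line 1 gave 2589 genes, 3909 with no filter on low counts, when 19431 genes were tested, and 1117 to 1936 with 1 library left out. DESeq2 gave 2904, RLE size factors 2589 and the spread of all 8 libraries 2311. A fit with the replicate number as a block gave 3613. The labels do not say that a replicate number marks a shared day or batch, and the block was kept to this check. The change from replicate 1 to 2 correlated at 0.182 between the lines over genes. The second principal component, with 12.7% of the variance, separated replicate 1 from replicate 2 in both lines. The main comparison of the lines has no term for the replicate number. Replicate 2 against replicate 1 gave 2 genes by edgeR and 55 by DESeq2; the cause was not tested. Of 133 named genes called between the lines none changed direction under any of these alternatives. The spread of all 8 libraries lost 15 of these calls and DESeq2 1, and leaving out 1 library lost 13 to 33. Mean TPM rescaled to protein-coding nuclear genes moved 13 of 321 named genes by more than their SD. With 2 libraries per line, simulated 2-fold changes in the line comparison were called in 59 of 100 genes and 4-fold changes in 90 of 100. Far fewer genes were changed there than the 2589 called in the data, so these are not the recovery rates of the real comparison. Smaller differences can be missed at this depth and number of libraries.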

Other observations

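The members included 919 genes that were not protein-coding, among them 360 processed pseudogenes, 158 antisense genes and 141 lincRNAs. Snhg12, a host gene of small nucleolar RNAs, stood at 207.7, 125, 178 and 110 TPM, Gas5, another, at 493, 417, 454 and 455 TPM, and Rian, a transcript of the imprinted Dlk1-Dio3 region, at 146, 98.9, 247 and 152 TPM. Rn7s1 and Rn7s2, near-identical copies of the signal recognition particle RNA, exchanged places between replicate 1 and replicate 2 in both lines. Rn7s1 was at 134, 786, 0 and 722 TPM and Rn7s2 at 830, 0, 609 and 0 TPM. Their strand and copy cannot be told from these values.

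Calls between the lines were uneven over the chromosomes, counted over protein-coding genes tested. Chromosome 1 had 157 genes higher and 34 lower in line 2 of 691, chromosome 12 had 101 and 21 of 423 and chromosome 18 had 82 and 26 of 327, with median log2 differences of 0.20, 0.32 and 0.30. Chromosome 19 had 16 higher and 122 lower of 433 and chromosome 6 had 25 and 108 of 572, with medians of -0.36 and -0.18. The mitochondrial genome had 8 of 13 genes higher and 0 lower, with a median of 0.63. Genes of 1 chromosome are not independent replicates, and no test was run on these counts, which were looked at after the data had been seen.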
